A study of Homo sapiens with 3 samples.

Results

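MALAT1 is a long noncoding RNA encoded on chromosome 11 (plus strand, 65265233 to 65273940, build hg19), a span of 8708 nt. The intervals that TIA1 immunoprecipitation gave on it were taken from 3 deposited lists by position and strand alone. Of the 2253 reproducible peaks of the series, 13 lay in MALAT1, as did 42 of the 103134 clusters of replicate 1 and 39 of the 66222 clusters of replicate 2. The gene itself was chosen by the number of reproducible peaks and the p-values that these lists give it, so its enrichment over input is described here and not tested.

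MALAT1 is an abundant RNA that stays in the nucleus and gathers in nuclear speckles, bodies rich in splicing factors. Its 3′ end is cut to release a small tRNA-like RNA, mascRNA, and the end that remains is shielded by a triple helix rather than a poly(A) tail. TIA1 binds U-rich RNA through RNA recognition motifs, acts in splicing and translation control, and shuttles between nucleus and cytoplasm.

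The RNA came from HEK293T cells, an established human embryonic kidney line carrying the SV40 large T antigen, with no genotype change or drug named. Ultraviolet light fixed protein to RNA, TIA1 was pulled down with an anti-TIA1 antibody, and its RNA was sequenced (eCLIP) in 2 replicates beside 1 input without antibody. The treatment protocol calls the same catalogue number an Msi1 antibody, and the replicates are called technical in one place and biological in another, so their spread may be technical. Whole reads recovered from the deposited values gave totals of 2683407 reads in replicate 1, 1997817 in replicate 2 and 2851338 in the input.

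The letters TIA1 is known to prefer were looked up in the MALAT1 transcript itself. The longest MALAT1 transcript of GENCODE 29 (ENST00000534336.1) has 8708 nt, the same length as the hg19 span, but belongs to another build, so its bases were not placed on the positions of the lists. It was 29.3% U, against a median of 27% over the longest transcripts of 5255 genes with at least 5000 nt. Runs of 5 U (TTTTT in the file's letters, counted on the transcript strand with overlaps) occurred 85 times, or 9.76 per kb. Of those long transcripts, 92.4% had a lower density and 98.2% held the motif at least once. The longer run TTTTTTT, whose matches are also matches of TTTTT, occurred 30 times (3.45 per kb), above 90% of the long transcripts, of which 81.1% held it. The AU-rich words ATTTA and TTTATTT occurred 22 and 6 times, above 81.1% and 82.4% of the long transcripts, of which 96.4% and 78.5% held them. The 5 non-overlapping windows of 30 nt with most U are shown to let the reader see what U-rich RNA looks like in this transcript, with runs of at least 3 in capitals. They are a description of the RNA and were not compared with the clusters, so they are given neither as bound nor as unbound.

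MALAT1 transcript nt 4859 to 4888: TTTTTTTTTTTctatagacTTTTTTcagat
MALAT1 transcript nt 6531 to 6560: ggcttacttgttgtagcTTTTTTTTTTTTT
MALAT1 transcript nt 3240 to 3269: TTTgtgggTTTTTTTTTTTTacacgaaTTT
MALAT1 transcript nt 8300 to 8329: TTTTctcaggTTTTgcTTTTTggccTTTTT
MALAT1 transcript nt 3045 to 3074: ttacttatggtaaccTTTTaTTTaTTTTct

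The longest uninterrupted run in these windows was 13 U, at the end of the second.

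TIA1 clusters covered a small share of MALAT1, and most of that share was common to both replicates. Clusters covered 1150 nt (13.2%) of the gene in each replicate and 1302 nt (15.0%) in either, and the nt shared by both came to 998, which is 86.8% of each list. A cluster was called enriched when its log2 fold over input and its −log10 p were both at least 3. By that call 12 of 42 clusters (28.6%) were enriched in replicate 1 and 13 of 39 (33.3%) in replicate 2, against 3.09% and 5.32% of all clusters of those lists. The p-value limit is harder to reach with few reads. With recovered reads, the median cluster held 171 and 131 reads in MALAT1 (replicates 1 and 2) and 4 over either list, so these shares also differ in depth. Enriched clusters of both replicates shared 290 nt (3.33% of the gene), which is 88.4% of the enriched nt of replicate 1 and 81.9% of those of replicate 2. Of the enriched clusters, 11 of 12 in replicate 1 and 12 of 13 in replicate 2 overlapped an enriched cluster of the other. Both folds are over the same input, so this overlap is not independent of it. The same overlap shares over all clusters of the lists are not given here. Whether MALAT1 stands out in overlap was therefore not tested.

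**Figure D1:**
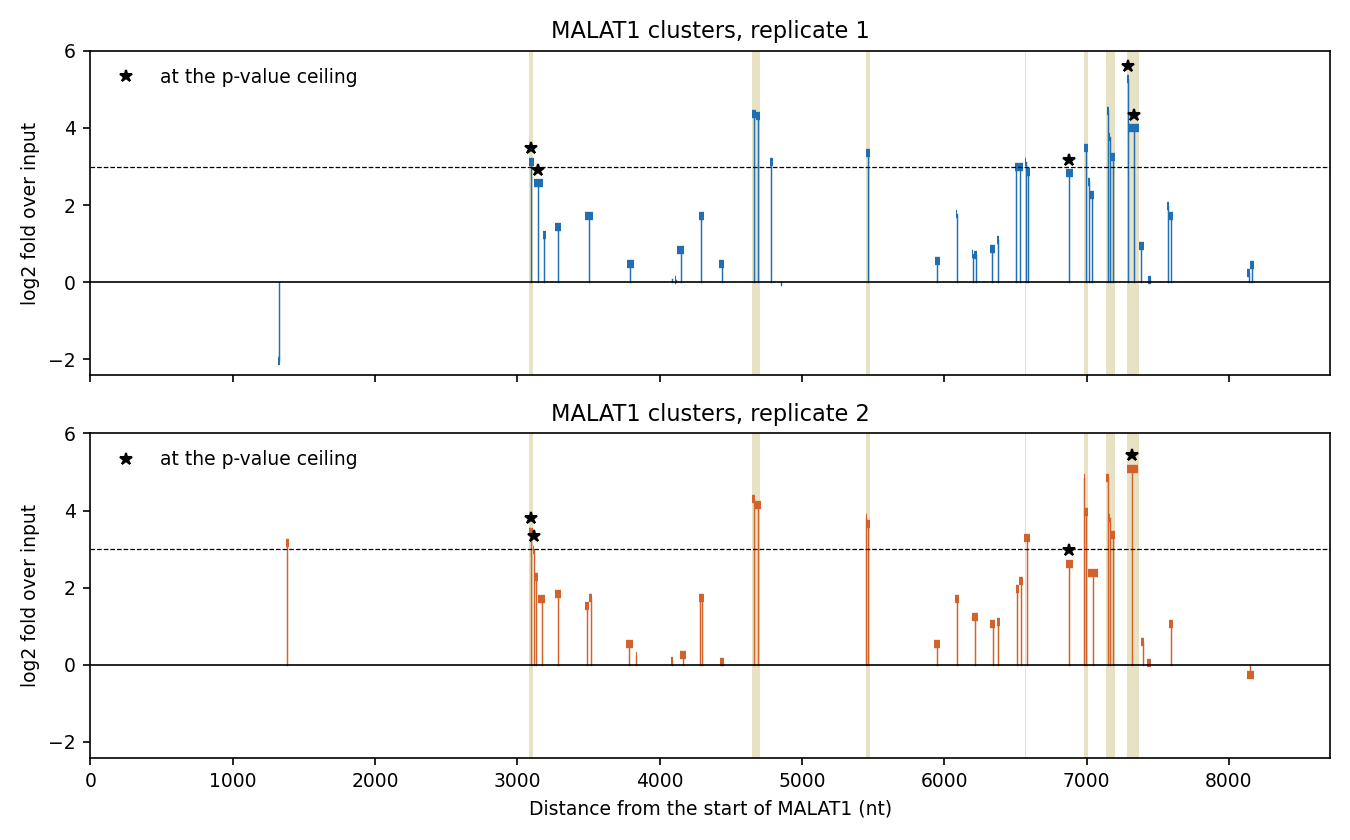
Each bar is a cluster, placed by its distance from the start of MALAT1 in nt (x axis) and its log2 fold over input (y axis), with replicate 1 above and replicate 2 below; shading marks the 13 reproducible peaks, stars mark clusters at the p-value ceiling and the dashed line is a log2 fold of 3. The first 3000 nt hold 1 cluster per replicate, and the tallest bar of replicate 1 (5.27) begins 7284 nt and that of replicate 2 (5.09) 7280 nt from the start.

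The 5′ part of the gene was almost free of clusters. In its first 3000 nt only 37 nt (1.23%) lay in a cluster of either replicate. The longest stretch with no cluster in either list ran from 65266626 to 65268311 (1686 nt, 19.4% of the gene), and the next was the very 5′ end, from 65265233 to 65266549 (1317 nt). Others ran from 65270088 to 65270679 (592 nt) and from 65272842 to 65273359 (518 nt). The 3′ end of the span, 65273412 to 65273940 (529 nt), also had none. The cut that releases mascRNA was not located here, so part of that stretch may lie beyond the RNA that remains. These 5 stretches made up 4642 nt, or 53.3% of the gene. An empty stretch means that no cluster was listed there, not that it held no reads, since reads outside clusters are not in the lists.

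Each of the 2 clusters in the first 3000 nt was listed in 1 replicate only, and they pointed in opposite directions. In replicate 1 the cluster from 65266550 to 65266566 lay below the input, at a log2 fold of -2.03, the lowest value in MALAT1 in either list. Its reads stood to those of the input as 64 to 277, so the input held at least 277 reads there. In replicate 2 the cluster from 65266606 to 65266625 was enriched, with 50 reads over 8 in the input and a log2 fold of 3.16. The only other enriched cluster without a partner was that of replicate 1 from 65270010 to 65270025, with 74 reads over 9 and a log2 fold of 3.13. In all, 5 clusters of replicate 1 and 2 of replicate 2 overlapped none of the other list. The share of all clusters without a partner is not given here, so these counts only describe MALAT1.

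The 13 reproducible peaks formed 7 sites when directly adjoining peaks were joined, all within 4289 nt of the middle and 3′ part of the gene. Their width ran from 3 to 74 nt with a median of 24 nt, against 53 nt over all reproducible peaks, and their median log2 fold was 3.83, against 4.15. Each peak took its bounds from a cluster of 1 replicate, 5 from replicate 1 and 8 from replicate 2. The deposited list gives the mean log2 fold of the replicates, and from it the reads of the other replicate came out whole within 0.0001 at all 13. Adjoining intervals can share reads, so the peaks of a site are not independent. Peaks at the ceiling of 400 in −log10 p fix only the ratio of the reads, and the numbers given for them are the smallest whole ones that exceed the largest −log10 p listed below that ceiling (96.0 in replicate 1, 94.0 in replicate 2).

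The first site, from 65268313 to 65268339 and 3080 nt from the start, stood at the ceiling. It held at least 703 reads in replicate 1 and 565 in replicate 2 over 74 in the input. Its log2 fold was 3.34 and 3.45, a mean of 3.39 ± 0.08 (SD, n = 2). The fold fell off downstream. In replicate 2 it went from 2.98 (at least 508 reads over 92, 65268340 to 65268352, also at the ceiling) through 2.28 (486 over 143, 65268353 to 65268378) to 1.71 (339 over 148, 65268379 to 65268428). In replicate 1 the next interval, 65268351 to 65268410, was at the ceiling with a log2 fold of 2.57 on at least 961 reads over 172. Despite these reads it missed the fold limit for enrichment, and the interval after it (65268411 to 65268431) stood at 1.22 on 134 reads over 61.

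The second site, from 65269883 to 65269937, gave the closest values between replicates. Its first peak (26 nt) held 308 and 229 reads over 16 in the input, with a log2 fold of 4.35 in each replicate. Its second (29 nt) held 319 and 248 reads over 17, with log2 folds of 4.32 and 4.38 (mean 4.35 ± 0.04, SD, n = 2). The 1543 nt between the first and second sites held 10 clusters of replicate 1 and 13 of replicate 2 wholly outside any peak, with log2 folds of at most 2.57 and 2.98.

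The third site, from 65270680 to 65270711, held 121 and 118 reads over 12 in its first 8 nt and 151 and 131 over 15 in the next 24 nt. The log2 folds were 3.42 and 3.81 for the first peak and 3.42 and 3.64 for the second. Replicate 1 listed this site as a single cluster at 3.34, on 153 reads over 16.

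The fourth site was the 13 nt peak from 65271797 to 65271809, with 107 and 108 reads over 13 and log2 folds of 3.13 and 3.57 (mean 3.35 ± 0.31, SD, n = 2). Just upstream lay the clusters that came nearest to the fold limit without reaching it. In replicate 1 the intervals 65271732 to 65271740 (240 reads over 32) and 65271741 to 65271785 (525 over 70) both had a log2 fold of 2.99. The overlapping clusters of replicate 2 stood at 1.97 (176 over 64) and 2.18 (212 over 67). The 525 reads were the most of any MALAT1 cluster of replicate 1 below the ceiling, but the fold differed between replicates by 0.82 for the better matched pair.

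A further interval at the ceiling belonged to no peak. From 65272086 to 65272135 the same 50 nt were listed in both replicates, the only interval of MALAT1 with identical bounds in the 2 lists. The folds 2.82 and 2.62 require a common input number, which gave at least 931 reads in replicate 1 and 603 in replicate 2 over 140. Of these reads 60.7% were from replicate 1 (95% interval 58.2 to 63.1, exact binomial), whose part of both library totals was 57.3%. Here the fold was higher in replicate 1, and it fell short of 3 in both.

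The fifth site, from 65272215 to 65272243, began with the narrowest peak. Its first 3 nt held 209 and 202 reads over 10, with log2 folds of 4.47 and 4.85, and its next 26 nt held 365 and 329 reads over 30, with 3.69 and 3.97. That is 69.7 and 67.3 reads per nt, and as reads are longer than 3 nt, these also reach into neighbouring intervals. Downstream the fold dropped below the limit, to 2.61 and then 2.25 in replicate 1 and to 2.39 in replicate 2.

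The sixth site, from 65272371 to 65272433, had 3 adjoining peaks with stepwise lower folds from 5′ to 3′. The first (19 nt) held 81 reads in each replicate over 4 in the input, the fewest reads and the lowest input of all 13 peaks, and its log2 folds were 4.43 and 4.85. The next (9 nt) held 183 and 146 reads over 15, a mean log2 fold of 3.75 ± 0.07 (SD, n = 2). The last (35 nt) held 256 and 208 reads over 29, with 3.23 and 3.36 (mean 3.29 ± 0.09, SD, n = 2), the lowest mean fold of the 13.

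The seventh and strongest site ran from 65272517 to 65272601, and both its peaks stood at the ceiling. Its first 11 nt held at least 471 reads in replicate 1 and 820 in replicate 2 over 13 in the input. The log2 folds were 5.27 and 6.49, that is 38.5-fold and 90-fold over input, with a mean of 5.88 ± 0.87 (SD, n = 2). That mean was above 97.8% of all reproducible peaks. The next 74 nt held at least 777 and 1038 reads over 52, with log2 folds of 3.99 and 4.83 (mean 4.41 ± 0.60, SD, n = 2). Replicate 2 listed a single cluster over most of the site, from 65272513 to 65272592, at a log2 fold of 5.09. Since it contains the 11 nt peak, it held at least 1050 reads over 44. In the next cluster downstream the fold was down to 0.95 in replicate 1 and 0.60 in replicate 2, on 124 reads over 68 and 69 over 65.

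**Figure D2:**
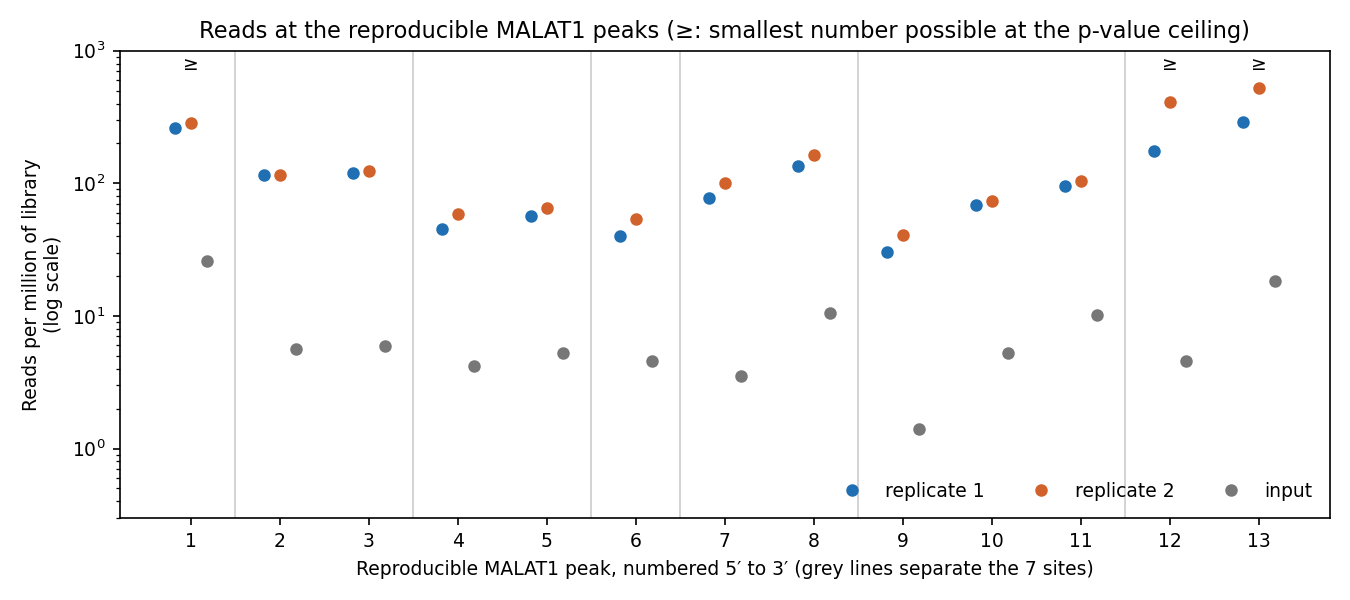
Reads scaled to a common library size (RPM) on a log scale (y axis) at the 13 reproducible peaks numbered 5′ to 3′ (x axis), with 1 point each for replicate 1, replicate 2 and the input, and grey lines between the 7 sites. Peaks 1, 12 and 13 carry a ≥ sign because their reads are the smallest numbers that the ceiling allows; at peak 12 the values are 176, 410 and 4.56 RPM.

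Whether the replicates differed at these peaks was tested from their reads. A two-sided exact binomial test set the reads of replicate 1 against its 57.3% of the library totals, with Benjamini-Hochberg adjustment over all 2253 reproducible peaks. It called 2 of the 13 MALAT1 peaks, both in the seventh site, against 2.00% of all reproducible peaks (45) and 0.976% called with replicate 2 higher (22). The median MALAT1 peak held 256 reads in replicate 1 and 208 in replicate 2, against 24 and 20 over all reproducible peaks. More reads let the test call smaller differences, so these shares are not on equal terms. The 2 called peaks also adjoin and can share reads. At the 11 nt peak the part of replicate 1 was 36.5% (95% interval 33.9 to 39.2, exact binomial), so replicate 2 was 2.34-fold higher per library (exact binomial test, adjusted p at most 5.68e-48). At the 74 nt peak that part was 42.8% (40.5 to 45.1) and replicate 2 was 1.79-fold higher (exact binomial test, adjusted p at most 1.89e-32). Any larger number of reads in the same ratio would give a smaller p. The MALAT1 site with the highest mean fold was thus also where the replicates were least alike, and its mean fold stands on values further apart than at any other MALAT1 peak.

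At the other 11 peaks the log2 ratio of replicate 2 to replicate 1 ran from 0.00 to 0.44, and none passed the adjusted threshold on the reads used. For the first site, at the ceiling, the adjusted p of 0.801 by the exact binomial test is an upper limit, so its call is not settled. Replicate 2 had the higher fold at 12 of the 13 peaks, all but the first peak of the second site. The widest interval among those not called was at the 19 nt peak of the sixth site, 50% in replicate 1 (42.1 to 57.9). The log2 ratio of 1.23 at the 11 nt peak lay above the upper bound of each of them, the highest of which was 0.89 at that 19 nt peak, while the 0.84 at the 74 nt peak did not. Without the 3 peaks at the ceiling, 0 of 10 MALAT1 peaks differed by the exact binomial test with adjustment, and 4 had an unadjusted p under 0.05. The test takes reads as independent and compares 2 libraries, not conditions.

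**Figure D3:**
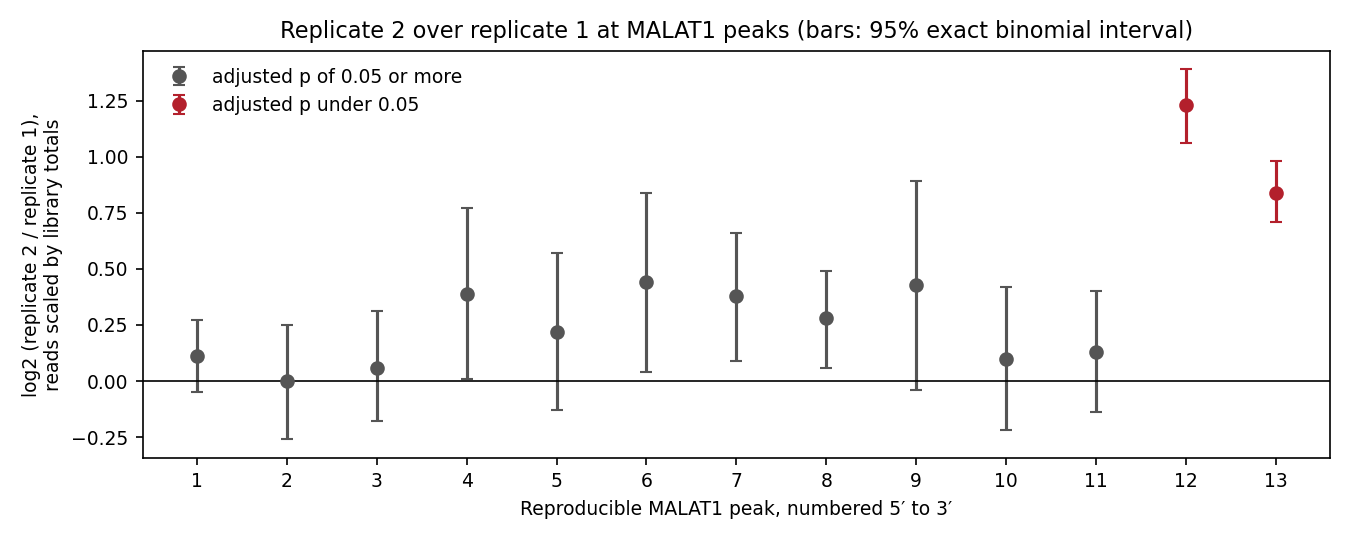
The log2 ratio of reads in replicate 2 to replicate 1, each scaled by its library total (y axis), at the 13 reproducible MALAT1 peaks numbered 5′ to 3′ (x axis), with bars for the exact 95% binomial interval. Peaks 12 and 13 sit at 1.23 and 0.84 and the other 11 between 0.00 and 0.44.

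Over the whole gene the clusters of both lists were matched by largest mutual overlap, which gave 30 pairs. The median absolute difference of their log2 folds was 0.25, and 23 pairs differed by less than 0.5. The largest difference, 1.10, was again at the seventh site, between clusters with different bounds. At the bounds of the 74 nt peak the log2 ratio of replicate 2 to replicate 1 was 0.84. Across the 30 pairs, which share an input and partly adjoin, Pearson's r was 0.964 and Spearman's rho 0.968, given as a description. Replicate 2 was the higher in 15 of the 30 pairs, against 12 of 13 at the peaks. A peak compares both replicates over the same bounds, while the clusters of a pair mostly differ in bounds, so these counts are unlike measures. At the reproducible peaks the median absolute difference of log2 folds was 0.28 in MALAT1, against 0.29 over all reproducible peaks.

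Reads were plentiful throughout the MALAT1 clusters, and unenriched clusters had the higher input numbers. All 39 clusters of replicate 1 and 37 of replicate 2 with recovered reads held at least 40 reads, against 1.05% and 0.890% of all such clusters in those lists. The median was 171 and 131 reads, against 4 over all clusters of either list. Among clusters above the input, below the ceiling and with recovered reads, the median input number of enriched ones was 16 in replicate 1 (range 4 to 36, n = 9) and 15 in replicate 2 (4 to 30, n = 11). In the unenriched ones it was 61 (18 to 198, n = 25) and 66 (30 to 148, n = 22). The clusters below the input, left out of these ranges, had inputs of at least 277 and 64 in replicate 1 and 211 in replicate 2. The medians of immunoprecipitated reads, enriched against unenriched, were 180 and 148 in replicate 1 and 146 and 100 in replicate 2. The call uses this ratio, so the contrast describes it and adds no test. Over all enriched clusters of either list the median input number was 1, so the MALAT1 folds rest on more input reads than most.

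**Figure D4:**
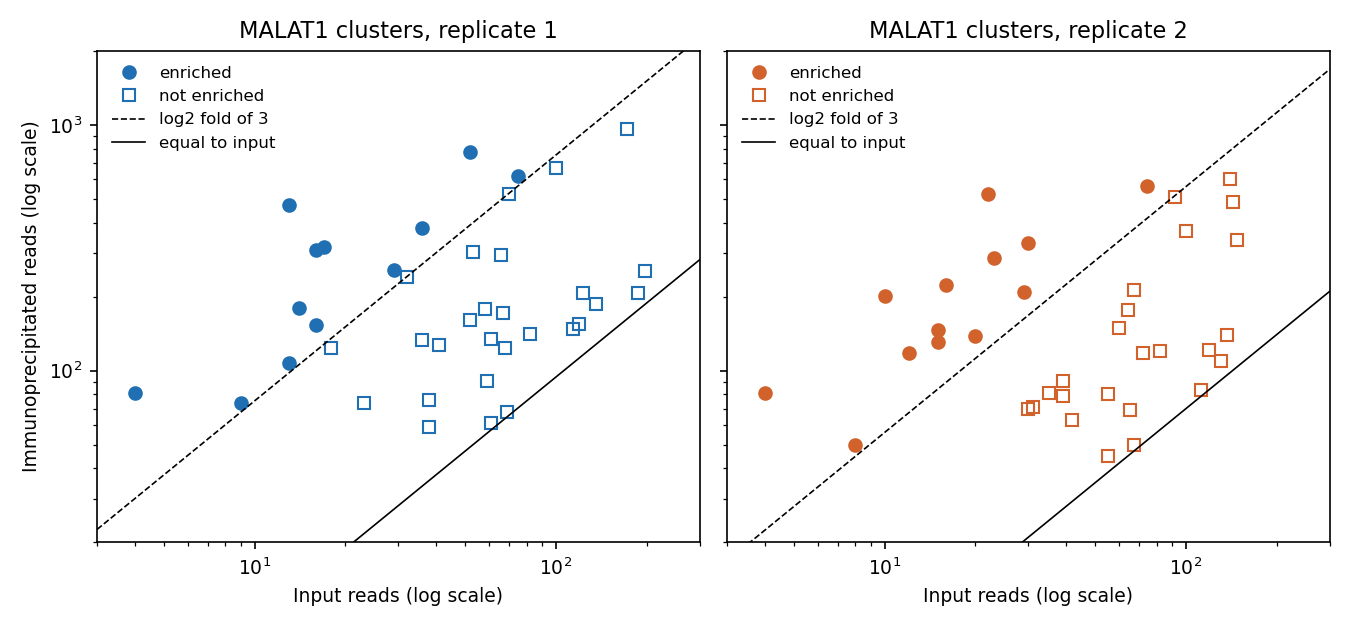
Immunoprecipitated reads (y axis) against input reads (x axis) for the MALAT1 clusters with recovered reads, both on log scales, with replicate 1 at left and replicate 2 at right; clusters at the ceiling are drawn at the smallest numbers that the ceiling alone allows, without the bounds from overlapping intervals. Filled circles are enriched and open squares are not, the dashed line is a log2 fold of 3 and the solid line equality with the input; below the ceiling, enriched clusters have input numbers of 4 to 36.

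Clusters that passed the p-value limit but not the fold limit were more numerous in MALAT1 than enriched ones. There were 19 of them in replicate 1 and 17 in replicate 2, against 1.06% and 1.05% of all clusters of those lists. Passing the p-value limit depends on read number too, and MALAT1 clusters held more reads than most. A further 11 and 9 had a −log10 p under 3. Below the input lay 2 clusters of replicate 1 and 1 of replicate 2, against 5.68% and 3.98% of all clusters. In replicate 2 it was the most 3′ cluster, 65273362 to 65273405, at a log2 fold of -0.27, where the overlapping clusters of replicate 1 stood at 0.23 on 206 reads over 187 and at 0.45 on 254 over 198.

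Intervals at the p-value ceiling were rare in the series and mostly in MALAT1. It held 5 of the 7 such clusters of replicate 1 (0.00679% of its list), 4 of the 6 of replicate 2 (0.00906%) and 3 of the 4 such reproducible peaks (0.178%). Those that both replicates shared covered 166 nt in 3 stretches, beginning 3080, 6853 and 7284 nt from the start. Of the ceiling clusters, 3 of 5 in replicate 1 and 2 of 4 in replicate 2 were also enriched. The rest had log2 folds from 2.57 to 2.98. A p at the ceiling reflects read number as well as fold, and MALAT1 has many reads.

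MALAT1 was set beside its upstream neighbour and the 2 loci nearest to it in number of reproducible peaks, with no test between loci. Peaks were joined into loci across gaps of up to 10000 nt on a strand. Its 13 peaks gave 3.03 per kb over the stretch they span. The next locus upstream on the same strand, 65192274 to 65212119, held 31 peaks at 1.56 per kb with log2 folds from 3.16 to 5.97 and none at the ceiling. GENCODE 29 lists NEAT1, the scaffold RNA of paraspeckles, upstream of MALAT1 on this strand, though in another build. Nearest in number were 11 peaks on the minus strand of chromosome 22 from 38879589 to 38894392 (median 4.12) and 10 on the minus strand of chromosome 7 from 26230859 to 26238786 (median 4.11). The share of enriched clusters over the peak-bearing stretch was 34.3% and 35.3% (replicates 1 and 2) in MALAT1, 50% and 42.9% upstream, 29.7% and 31.6% on chromosome 22 and 62.5% and 84.6% on chromosome 7. The enriched share of MALAT1 thus lay within the range of these other loci, all of them defined by their peaks. Of these, 2 were chosen by number of peaks and the upstream one by its position. The median input number per peak was at least 15 in MALAT1 and 4, 3 and 4 in those loci, and the median reads in replicate 1 were 256 and 60, 47 and 44. Peaks whose reads differed between replicates numbered 2 in MALAT1, 0 upstream, 2 on chromosome 22 and 0 on chromosome 7.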

How the data were processed

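The build was hg19 and the tools named were STAR 2.4.0i, SAMtools 1.4.1 and cutadapt 1.9.1 and 1.14, per the submitters' processing notes. The cluster caller is not given in the sources used here. Clusters were called per replicate, and a list of reproducible peaks covers both. The lists have no header. The deposited −log10 p-value (ceiling 400) compares an interval with the input, and the log2 value, as deposited, is their fold over input after scaling by library size; both units were read from the values. The input enters only through them.

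The commonest fold of each list was read as 3 reads over 1. It gave the ratio of totals, and of multiples 1 to 6 of the smallest whole totals, 3 best returned the deposited p-values. Reads were the multiple of each reduced fraction whose p-value (Fisher's exact test for numbers under 5, otherwise Yates' chi-square) matched within 2e-05. The recovery and the binomial test were also tested on simulated data. The simulated reads varied by counting error only, so further spread between libraries was not covered. Recovery was simulated only below the ceiling, so it was not checked for peaks at the ceiling. Where the input is given as 1 read it may have been 0. Intervals cover counting error only. Overlap meant at least 1 nt on 1 strand. Python 3.11.15 and scipy 1.17.1 were used. The named intervals are all reproducible MALAT1 peaks, all at the ceiling, the extreme folds and the 5 longest empty stretches; others were chosen after their values were seen. The gene, the lists and the rules were chosen with earlier results of these data known.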

Additional observations from a re-analysis of the deposited data

How the results depend on the processing

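At a log2 fold of at least 1 with −log10 p of at least 3, enriched MALAT1 clusters rose to 27 in replicate 1 and 30 in replicate 2, their shared nt to 714 and the clusters of replicate 1 overlapping one of replicate 2 to 25. At a log2 fold of at least 4 with −log10 p of at least 5 these were 4, 5, 80 and 4, and 6 reproducible peaks were left. The shares of all clusters and peaks that pass these other limits are not given here. The counts therefore show only how MALAT1 moves with the limits. With reciprocal overlap 9 of the 11 overlapping clusters were kept. Without replicate 1 or replicate 2 the enriched nt were 354 and 328, and the share of the gene in any cluster was 13.2% either way; with at least 10 reads or the ceiling required it was 14.6%. With the expected share taken from all peak reads (55.7%), 2 peaks still differed between replicates (exact binomial test, adjusted p at most 1.57e-40 and 3.74e-25). Leaving out the peaks at the ceiling, a choice made after seeing the data, gave 0, since both called peaks are at the ceiling. The U content inside and outside peaks, and its alternatives, were not run, because the sequence used here is of another build. No paired analysis was possible because the input has no list of its own and the replicates form a single group. Depth is lowest at the 19 nt peak of the sixth site, with 81 reads in each replicate over 4.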

Other observations

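The surroundings of MALAT1 were empty of clusters. On the plus strand the nearest cluster upstream lay 52.3 kb away in both replicates, and the nearest downstream 18.8 kb away in replicate 1 and 20.7 kb in replicate 2. On the minus strand, where RefSeq lists the antisense RNA TALAM1 opposite MALAT1 in another build, the span held 0 clusters in each replicate and 0 reproducible peaks. The nearest minus-strand cluster was 38.7 kb downstream in replicate 1 and 103 kb downstream in replicate 2.

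Counted by where they begin, clusters were spread unevenly over the gene. In steps of 1000 nt from the start, replicate 1 had 0, 1, 0, 6, 9, 2, 11 and 11 clusters and then 2 in the last 708 nt. Replicate 2 had 0, 1, 0, 9, 7, 3, 10 and 8 and then 1. The sixth step was thin in both. The eighth held 159 of the 304 nt inside reproducible peaks.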
